A study of Mus musculus with 36 samples.

Results

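CD8 T cells that carried an shRNA against Egr2 were set against cells that carried an shRNA against 1 of 4 other genes, on the arrays labelled spleen. The contrast rests on 3 of the 36 arrays of the series, Egr2 arrays 1 to 3 labelled spleen, and its comparison set is 12 arrays, 3 each for the Ppp2r2d, Ptpn2, Arhgap5 and Alk hairpins under the same label. The members are all genes with a named probe set, 18193 in all, each represented by the one of its probe sets that was brightest on average over all 36 arrays. A difference is the mean of the 3 Egr2 arrays minus the mean of the 4 hairpin group means, on the log2 scale, so that each of the 4 groups counts equally.

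In every group the cells were OT-I CD8 T cells, which carry a transgenic receptor specific for ovalbumin, and they had been transduced with an shRNA and transferred into mice with B16 melanoma. The groups used here are cells with shRNA targeting Egr2, Ppp2r2d, Ptpn2, Arhgap5 or Alk, or LacZ, which mouse cells lack and which is the control. Each has 3 arrays labelled spleen and 3 labelled tumor, and the LacZ arrays stay outside the contrast and are given beside it. The labels do not say how many hairpins were used per gene, how many mice stand behind an array or whether the arrays of a group are from different mice, so a p here reflects the spread between arrays, which may be technical. The series compares these genes because they were found to affect how T cells are distributed between tumor and spleen.

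Egr2 is a zinc finger transcription factor that T cells induce within hours of receptor stimulation, downstream of calcium and NFAT signalling, together with its relatives Egr1 and Egr3. Egr2 and Egr3 are known as brakes on T cell activation: they favour anergy genes and inhibitory signalling, and their loss in mice has been tied to excess cytokine production and autoimmunity. Nab1 and Nab2 are corepressors that bind Egr proteins, and the cell cycle inhibitor gene Cdkn1a has been described as an Egr2 target in T cells.

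The tissue label is kept as a label because the marker genes do not match it. The mean over 13 melanocyte markers was 2.29 to 3.55 on the 3 Egr2 arrays labelled spleen and 2.30 to 3.98 on the 12 other hairpin arrays labelled spleen, while it was -1.44 to -0.33 on the 18 arrays labelled tumor. Macrophage markers were also higher under the label spleen, at 2.29 to 2.61 on the Egr2 arrays and 1.57 to 4.12 on the 12 others, against -1.65 to -0.26 on arrays labelled tumor. T cell markers were high on every array: 6.15 to 6.47 on the Egr2 arrays, 6.03 to 6.66 on the 12 others and 5.07 to 7.19 on arrays labelled tumor. The LacZ arrays labelled spleen stood apart from the hairpin arrays of that label, with a best correlation with any other array of 0.968 to 0.975, against 0.988 to 0.989 for the Egr2 arrays and 0.990 to 0.993 for the 12 others. Among the arrays labelled tumor 1, Ptpn2 array 1, stood apart (0.905). Array medians lay between -0.48 and -0.37 on the Egr2 arrays and between -0.47 and -0.29 on the 12 others, and precision is limited by how few arrays each group has.

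The targeted transcript was lower on the arrays of its own hairpin. Egr2 read 3.94, 4.08 and 3.89 on the Egr2 arrays, against a lowest value of 4.41, a median of 5.01 and a highest value of 5.47 on the 12 other hairpin arrays. The groups did not overlap, and the 3 LacZ arrays, at 5.43, 5.64 and 4.40, were also all above the Egr2 arrays. The difference was -0.97 ± 0.17 (SE, n = 3 against 12), with an adjusted p of 0.00928 in the limma fit. A second Egr2 probe set gave -1.19 ± 0.17, with a limma adjusted p of 0.0023 over all probe sets. The call of the Egr2 transcript was lost under 5 of 33 alternatives, which count the second probe set. It was lost without Egr2 array 1 (adjusted p = 0.0535 by limma) and when all 36 arrays shared 1 estimate of the spread (adjusted p = 0.873). The other losses came with 18 arrays labelled spleen in the fit, with the 12 other arrays as 1 group and under a minimum difference of 1.

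The relatives and corepressors of Egr2 did not pass the test. Egr1 differed by -0.21 ± 0.16, Egr3 by -0.07 ± 0.22 and Egr4 by -0.06 ± 0.15 (SE), all with overlapping arrays. Nab1 differed by 0.36 ± 0.18 and Nab2 by 0.23 ± 0.18. Of the 6 genes of the family and its corepressors the 1 called was thus Egr2, the target of the hairpin itself, and the median difference was -0.07 beside 0.05 over all genes. The other 4 targeted genes were not called either: Ppp2r2d, which encodes a PP2A phosphatase subunit, differed by 0.36, the tyrosine phosphatase gene Ptpn2 by 0.22, Arhgap5 by -0.25 and the receptor tyrosine kinase gene Alk by -0.01. The comparison set holds the arrays of each gene's own hairpin. Against those alone Ppp2r2d differed by 1.21, Ptpn2 by 0.81, Arhgap5 by -0.30 and Alk by -0.31. Against the other groups Ppp2r2d differed by -0.17 to 0.21 and Ptpn2 by -0.09 to 0.21.

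**Figure D1:**
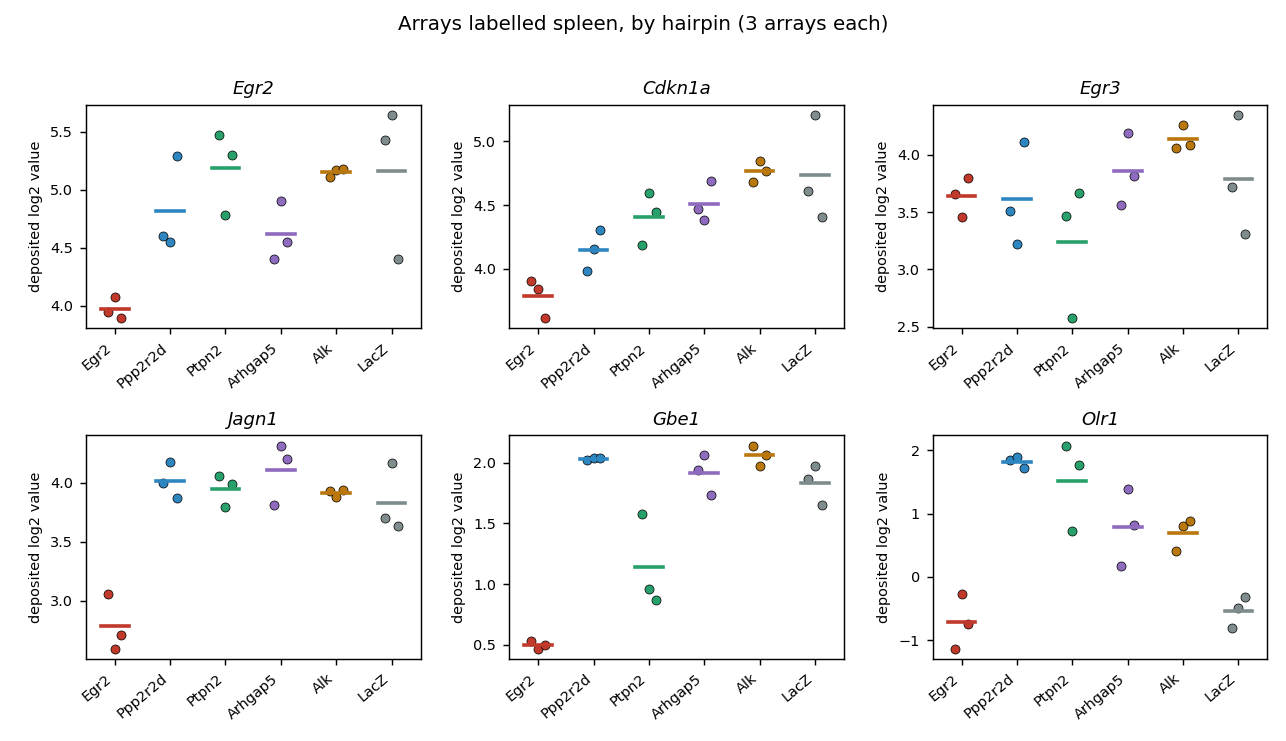
Deposited log2 value on each array labelled spleen for Egr2, Cdkn1a, Egr3, Jagn1, Gbe1 and Olr1, with the hairpin groups on the horizontal axis; points are arrays, bars are means of 3 arrays. Egr2, Cdkn1a, Jagn1 and Gbe1 are lower on the 3 Egr2 arrays than on every other array shown, Egr3 overlaps, and for Olr1 the LacZ arrays lie within the range of the Egr2 arrays.

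At a Benjamini-Hochberg adjusted p under 0.05, 262 of 18193 genes (1.44%) differed in the Egr2 contrast, 126 higher (0.693%) and 136 lower (0.748%). Of these, 48 were higher and 61 lower by at least 1 on the log2 scale. Because the 4 comparison groups also differ among themselves, called genes were split by whether the 3 Egr2 arrays lay outside all 12 others. They lay above all 12 for 51 of the genes called higher (0.28% of all genes) and below all 12 for 38 of those called lower (0.209%). For the other 75 higher and 98 lower calls at least 1 comparison group reached into the Egr2 range. Over all genes, called or not, the 3 Egr2 arrays were above all 12 others for 118 (0.649%) and below them for 53 (0.291%). Against each of the 4 group means taken alone, 212 of the 262 kept their direction, 104 higher and 108 lower.

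The Egr2 arrays gave the fewest calls of the 5 hairpins when each was set against the other 4 in the same way, a description only, since these comparisons share their arrays. The same contrast called 945 genes higher (5.19%) and 815 lower (4.48%) for Ppp2r2d, 268 (1.47%) and 312 (1.71%) for Ptpn2, 284 (1.56%) and 464 (2.55%) for Arhgap5, and 552 (3.03%) and 254 (1.4%) for Alk. The count for Egr2 rests on how the spread is estimated: with the 12 other arrays as 1 group, so that differences among the 4 hairpins enter the spread, limma called 34 genes, and with all 36 arrays in the fit it called 51. It was 148 without Egr2 array 1 and 133 without Egr2 array 2. Hairpin and any batch of transduction, donor or host cannot be told apart, since each group has 1 hairpin target and the labels give no batch.

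**Figure D2:**
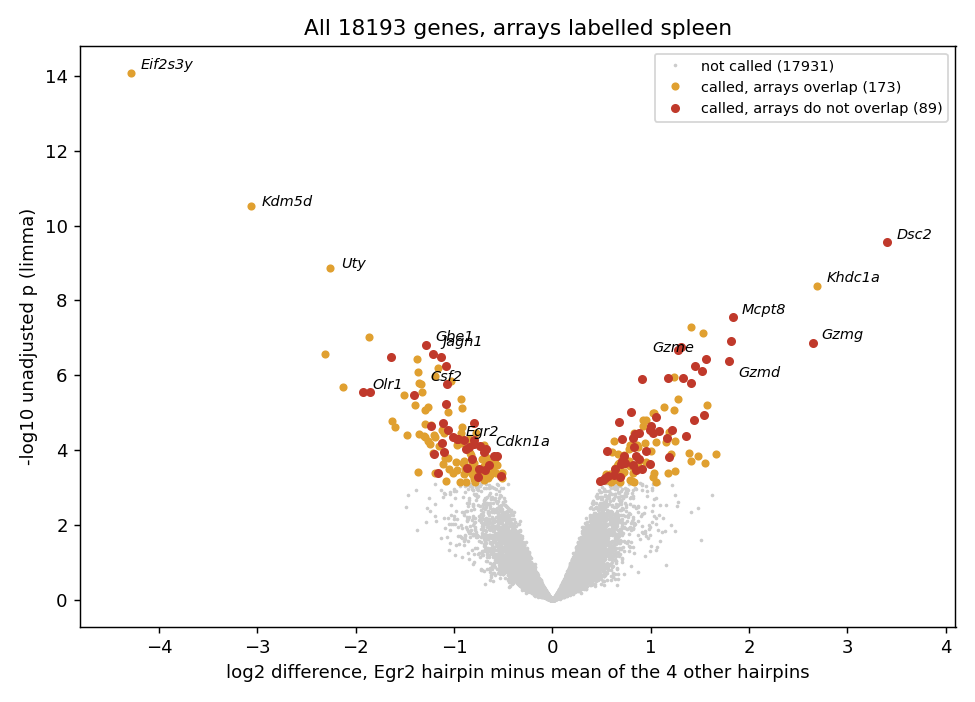
The log2 difference of the Egr2 contrast on arrays labelled spleen (horizontal) against -log10 of the unadjusted limma p (vertical), 1 point per gene for all 18193 genes. Red marks called genes whose 3 Egr2 arrays lie outside the 12 others and orange marks called genes whose arrays overlap; Dsc2 (3.41) and Gzmg (2.65) lead the red points on the right, and the Y-linked gene Eif2s3y (-4.28) is farthest left among the overlapping ones.

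The granzyme genes Gzmc to Gzmg were called higher together. Granzymes are serine proteases that killer T cells release from granules, and in mouse Gzmc, Gzmd, Gzme, Gzmf and Gzmg lie with Gzmb and Mcpt8 in 1 cluster on chromosome 14. All 5 of Gzmc to Gzmg were called higher with the Egr2 hairpin, and for Gzmd, Gzme and Gzmg the arrays did not overlap with the 12 others. The promoters of these last 3, printed here because the genes moved together and are near copies of one another, show how alike they are. They are the 250 bases before each start in RefSeq (GRCm38.p6), in lower case because neither Egr motif described further on occurs in them.
Gzmd (chr14:56132594-56132843, minus strand): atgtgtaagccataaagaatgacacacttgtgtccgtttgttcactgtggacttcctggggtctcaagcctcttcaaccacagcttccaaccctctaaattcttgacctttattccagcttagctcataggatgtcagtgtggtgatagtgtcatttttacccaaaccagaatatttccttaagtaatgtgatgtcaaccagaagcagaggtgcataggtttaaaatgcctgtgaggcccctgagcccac
Gzme (chr14:56120626-56120875, minus strand): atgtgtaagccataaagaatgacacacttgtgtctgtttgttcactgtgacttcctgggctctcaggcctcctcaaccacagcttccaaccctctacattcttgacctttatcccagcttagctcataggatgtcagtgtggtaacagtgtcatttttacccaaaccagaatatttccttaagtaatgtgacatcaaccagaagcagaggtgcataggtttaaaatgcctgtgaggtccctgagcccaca
Gzmg (chr14:56159580-56159829, minus strand): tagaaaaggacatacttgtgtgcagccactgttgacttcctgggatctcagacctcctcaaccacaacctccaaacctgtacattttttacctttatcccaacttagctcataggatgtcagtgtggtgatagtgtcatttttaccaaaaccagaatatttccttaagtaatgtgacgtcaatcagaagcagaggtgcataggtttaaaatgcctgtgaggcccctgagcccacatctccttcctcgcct
Over all aligned columns, with gaps and unmatched window ends counted as differences, the Gzmd and Gzme promoters were 94.8% identical. By that count Gzmd and Gzmg were 78.6% identical (209 of 266 columns) and Gzme and Gzmg 79.4% (212 of 267). The windows are offset, so the share over paired bases alone is higher. Array probes read transcripts, which were not compared here. Whether these genes share signal on their probes was not tested, so their values may not be separate measurements.

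Gzmg read 4.88, 4.05 and 4.44 on the Egr2 arrays, against a lowest value of -0.04, a median of 1.94 and a highest value of 3.27 on the 12 others. The difference was 2.65 ± 0.29 (SE), with a limma adjusted p of 0.000219. The 3 Arhgap5 arrays, at 2.89, 3.27 and 3.16, were the nearest, and the Ptpn2 arrays the lowest, at -0.04, 1.05 and 1.23.

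Gzmd read 5.87, 5.22 and 5.15 with the Egr2 hairpin, against 2.05 to 4.71 with a median of 3.45 on the 12 others, a difference of 1.80 ± 0.21 (SE, limma adjusted p = 0.000351). A second Gzmd probe set gave 1.84. Gzme read 6.13, 5.69 and 5.45 on the Egr2 arrays, against 2.91 to 5.27 with a median of 4.11 on the 12 others, and differed by 1.56 ± 0.18 (SE, limma adjusted p = 0.00033). For both genes the Arhgap5 group was again nearest, with differences of 0.78 and 0.59 between the group means.

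Gzmf and Gzmc, the 2 remaining genes of Gzmc to Gzmg, were called with overlapping arrays. Gzmf read 6.19, 5.93 and 5.94 on the Egr2 arrays and 2.52 to 6.51 on the 12 others, a difference of 1.24 ± 0.16 (SE, limma adjusted p = 0.00071); against the Arhgap5 mean alone the difference was -0.31. Gzmc differed by 0.64 ± 0.15 (SE, limma adjusted p = 0.0413). The main killing proteins of the same granules did not pass the test: Gzmb differed by 0.05 ± 0.14 and the pore former Prf1 by 0.17 ± 0.17 (SE). Gzmm differed by -0.31 ± 0.16 (SE), also without a call. Over the list of cytotoxic effectors 5 of 23 measured genes were called higher and 0 lower, beside 0.693% and 0.748% of all genes, and the list had a median difference of 0.19 beside 0.05 over all genes.

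The same genes were also high with the control hairpin. On the LacZ arrays Gzmg read 3.63, 4.27 and 3.38, Gzmd 4.77, 5.90 and 4.94, and Gzme 6.56, 6.01 and 5.12, each overlapping with the Egr2 arrays. The lowest LacZ array had 6.28 for Gzmf, above all 3 Egr2 arrays. Across the 51 non-overlapping genes called higher, the LacZ mean lay above all 12 other hairpin arrays, on the Egr2 side, for 21, beside 33.2% of all genes. Across the 38 called lower it lay below all 12 for 17, beside 12.5% of all genes. The LacZ arrays are those that stand apart from the other arrays of that label, and the part of this in the comparison was not tested.

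**Figure D3:**
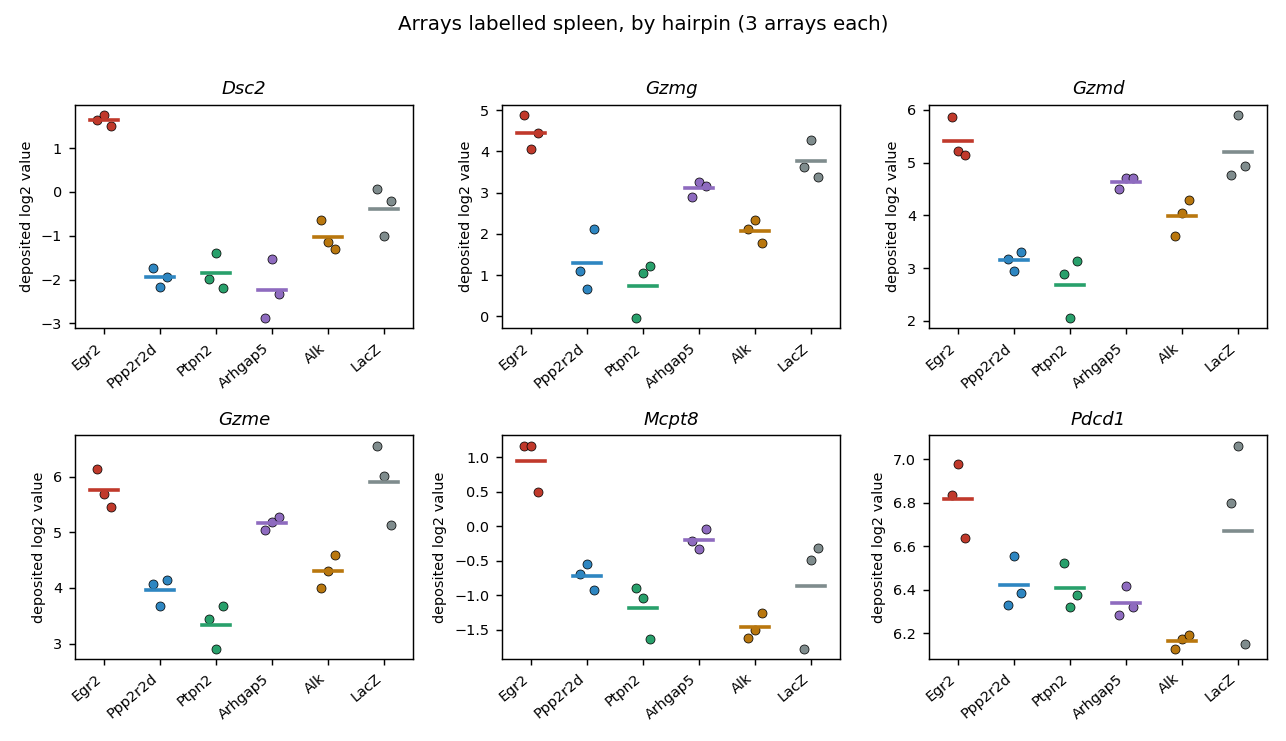
Deposited log2 value on each array labelled spleen for Dsc2, Gzmg, Gzmd, Gzme, Mcpt8 and Pdcd1, with the hairpin groups on the horizontal axis; points are arrays, bars are means of 3 arrays. In all 6 genes the Egr2 arrays are above the 12 arrays of the other 4 mouse-gene hairpins, while LacZ arrays reach the Egr2 range for Gzmg, Gzmd, Gzme and Pdcd1 and not for Dsc2 or Mcpt8.

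The largest rise was Dsc2, which encodes desmocollin 2, a cadherin of desmosomes. It read 1.65, 1.75 and 1.52 on the Egr2 arrays, against a lowest value of -2.88, a median of -1.84 and a highest value of -0.64 on the 12 others. The difference was 3.41 ± 0.24 (SE), with a limma adjusted p of 1.69e-06, and against single group means it ran from 2.67 over Alk to 3.88 over Arhgap5. The LacZ arrays, at 0.06, -1.01 and -0.20, were also below all 3 Egr2 arrays. A second, dimmer Dsc2 probe set gave 0.77 and was not called.

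Mcpt8, a serine protease gene of the chromosome 14 cluster best known as a basophil marker, read 1.17, 1.16 and 0.50 on the Egr2 arrays. The 12 others read -1.63 to -0.04 with a median of -0.91, and the difference was 1.83 ± 0.18 (SE, limma adjusted p = 8.54e-05). The LacZ arrays, at -1.77, -0.49 and -0.32, were also below the Egr2 arrays. Ppp1r3g, a subunit that brings protein phosphatase 1 to glycogen, read -0.33, -0.23 and -0.96 with the Egr2 hairpin, against -2.75 to -1.68 with a median of -2.36 on the 12 others, a difference of 1.81 ± 0.19 (SE, limma adjusted p = 0.000217). Both of its group means were below the median gene of the arrays, so the rise starts from a low signal.

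The other large rises were of genes with diverse roles. Paqr3, a Golgi protein that holds back Raf kinase, differed by 1.54, and its values were 3.75, 3.18 and 3.36 on the Egr2 arrays, against 1.14 to 2.98 on the 12 others. Grb7, an adaptor that docks on receptor tyrosine kinases, was nearly constant on the Egr2 arrays at 0.79, 0.76 and 0.87, and read -1.63 to -0.04 on the 12 others, a difference of 1.52. Tsga10, a sperm tail protein gene, read 1.85, 1.81 and 1.43 with the Egr2 hairpin and -0.22 to 0.69 on the 12 others, a difference of 1.46. Mgat3 (1.44), which adds the bisecting sugar to N-glycans, Srsf12 (1.42), a splicing regulator, and Myo5c (1.36), a myosin motor gene, complete the 12 largest non-overlapping rises. For these last 3, both group means were below the median gene, and limma adjusted p-values of the 6 genes ran from 0.000456 for Tsga10 to 0.00835 for Myo5c. Without Egr2 array 2 the Myo5c call was lost. Mgat3 was also high on the LacZ arrays, at -0.60, -0.70 and -1.29, beside -0.71, -1.41 and -1.96 on the Egr2 arrays. The other 2 Mgat3 probe sets, both dimmer, gave 0.001 and 0.11 and were not called. A second, dimmer probe set gave 0.34 for Tsga10 and 0.26 for Myo5c, also without a call.

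Gbe1, the branching enzyme of glycogen synthesis, fell to a nearly constant level on the Egr2 arrays. Gbe1 read 0.54, 0.47 and 0.50 on the Egr2 arrays, against a lowest value of 0.87, a median of 2.00 and a highest value of 2.14 on the 12 others, and 1.86, 1.98 and 1.65 on the LacZ arrays. The difference was -1.28 ± 0.14 (SE, limma adjusted p = 0.000232), and the Ptpn2 group was the nearest, with -0.64.

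Jagn1, an endoplasmic reticulum protein needed for neutrophil maturation, fell by nearly the same amount against each comparison group. It read 3.06, 2.59 and 2.71 on the Egr2 arrays, against 3.79 to 4.31 with a median of 3.97 on the 12 others and 3.70, 4.16 and 3.63 on the LacZ arrays. The difference was -1.21 ± 0.14 (SE, limma adjusted p = 0.000304), and against single groups it ran from -1.32 to -1.13. Ncoa4, the receptor that delivers ferritin for breakdown, was also even, with -1.17 to -1.08 against the single groups. Its Egr2 arrays differed among themselves, at 4.24, 3.02 and 4.00, and the difference of -1.12 lost its call without Egr2 array 2.

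Olr1, the receptor for oxidised low-density lipoprotein, had the largest non-overlapping fall. It read -1.13, -0.28 and -0.74 on the Egr2 arrays, against 0.18 to 2.07 with a median of 1.13 on the 12 others, a difference of -1.92 ± 0.27 (SE, limma adjusted p = 0.00129). The LacZ arrays, at -0.81, -0.49 and -0.32, were as low as the Egr2 arrays. The same held for Prss2, a trypsin gene that lies beside the T cell receptor beta locus in mouse, which read -0.33, 0.23 and 0.79 on the Egr2 arrays, 1.33 to 2.81 on the 12 others and -1.71 to 0.38 on the LacZ arrays, with a difference of -1.64. All 4 Prss2 probe sets were called lower with the Egr2 hairpin, although trypsin genes are near copies that probes may not separate. Art3, of the ADP-ribosyltransferase family, was likewise low on the LacZ arrays, at -1.48 to -0.92. It differed by -1.41 in the contrast, with -1.16 to -0.22 on the Egr2 arrays and 0.17 to 1.24 on the 12 others.

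Of the further falls, Stag3, the meiotic cohesin subunit, differed by -1.86, with -2.20, -2.66 and -2.06 on the Egr2 arrays and a wide -1.99 to 0.72 on the 12 others. Its Egr2 mean and that of the 12 others were both below the median gene, so the size of this fall is uncertain. Erlin2, which takes part in protein degradation at the endoplasmic reticulum, differed by -1.13, with 0.79, 0.48 and 0.65 on the Egr2 arrays and 0.94 to 2.48 on the 12 others. Tlr7, the endosomal sensor of single-stranded RNA, differed by -1.20, and its 3 probe sets gave -1.39 to -1.20. On the LacZ arrays Tlr7 read -1.99, -0.09 and -1.48, beside -1.20, -0.56 and -0.52 on the Egr2 arrays. Igfbp7 (-1.23), a secreted protein that binds insulin-like growth factors, Kbtbd8 (-1.17), an adaptor of a Cul3 ubiquitin ligase, and Heatr4 (-1.11) complete the 12 largest. Their limma adjusted p-values ran from 0.00033 for Erlin2 to 0.0349 for Kbtbd8, and the calls of Tlr7 and Kbtbd8 were lost without Egr2 array 1 or 2, that of Kbtbd8 also without array 3. Further probe sets of 3 of these genes were dimmer, gave smaller differences and were not called: -0.40 and -0.68 for Igfbp7, -0.02 for Kbtbd8 and 0.15 for Art3. For Art3, Tlr7 and Heatr4 both means were below the median gene, so the size of these falls is also uncertain. With the 12 others as 1 group, 15 of the 24 genes named by size kept their call, among them Dsc2, Mcpt8, Jagn1, Gbe1 and Olr1, while the granzymes, Paqr3, Stag3, Igfbp7, Tlr7, Kbtbd8 and Erlin2 did not.

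Among genes linked to Egr2 in T cells, 3 of 29 were called lower and 0 higher, beside 0.748% and 0.693% of all genes, with a median difference of -0.03 beside 0.05. Cdkn1a, which encodes the cell cycle inhibitor p21, read 3.90, 3.84 and 3.61 on the Egr2 arrays, against 3.98 to 4.84 with a median of 4.46 on the 12 others, and 4.61, 5.21 and 4.40 on the LacZ arrays. It was below every other array of that label, with a difference of -0.67 ± 0.13 (SE, limma adjusted p = 0.0138), and it ranged from -0.36 against Ppp2r2d to -0.98 against Alk. A second Cdkn1a probe set gave -0.56 and was not called. The call was lost under 10 of 32 alternative settings, among them leaving out Egr2 array 2 or 3 and taking the 12 others as 1 group. Cdkn1a was also the 1 called gene among 14 cell cycle inhibitors and p53 targets, beside 1.44% of all genes, a list with a median of -0.19.

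The chemokine gene Ccl1 read 4.22, 3.84 and 3.46 on the Egr2 arrays and 4.14 to 5.86 on the 12 others, with a difference of -1.20 ± 0.21 (SE, limma adjusted p = 0.00868). Crabp2, a carrier of retinoic acid, read 3.49, 3.47 and 3.00 with the Egr2 hairpin and 3.40 to 4.72 on the 12 others, with a difference of -0.79 ± 0.17 (SE, limma adjusted p = 0.0311). In both genes the highest Egr2 array reached into the lowest of the others. Members of the list known from anergy and receptor brakes did not pass the test: the ubiquitin ligase genes Cblb and Itch differed by 0.02 and 0.07, and the diacylglycerol kinase gene Dgka by 0.31. The ubiquitin ligase gene Rnf128 differed by -0.54, and Nrn1 by -0.38. Prdm1, which encodes Blimp-1, differed by 0.65 and Il10 by 0.68, also without a call.

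The 7 letters GTGGGCG and GGGGGCG, 2 forms of the core that Egr zinc fingers bind, were searched on both strands in the 250 bases before each RefSeq start. The second shares letters with the GC box, GGGCGG, of Sp1 factors. Of the 14452 tested genes with such a window 32.9% held at least 1 match, beside 34.7% of 98 genes called higher and 33.3% of 105 called lower in the Egr2 contrast. Among non-overlapping calls 12 of 40 higher and 12 of 33 lower had a match. The window of the second RefSeq start of Cdkn1a, printed because Cdkn1a is the Egr2-linked gene that was low on every Egr2 array, holds 1 match, in capitals, 48 bases before the start (GRCm38.p6). The window of the first Cdkn1a start held no match.
Cdkn1a (chr17:29093519-29093768, plus strand): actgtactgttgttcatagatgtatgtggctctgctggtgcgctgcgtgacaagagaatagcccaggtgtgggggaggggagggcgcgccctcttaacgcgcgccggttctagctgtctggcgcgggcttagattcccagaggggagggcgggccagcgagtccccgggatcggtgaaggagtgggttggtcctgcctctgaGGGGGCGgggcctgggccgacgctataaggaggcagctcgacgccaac
A match describes the letters in the window and is not evidence of binding.

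Among inhibitory receptors of activated and exhausted T cells 2 of 14 were called higher and 0 lower, beside 0.693% and 0.748% of all genes, with a median difference of 0.23. Both calls depend on the settings. Pdcd1, which encodes PD-1, read 6.84, 6.98 and 6.64 on the Egr2 arrays and 6.13 to 6.55 with a median of 6.33 on the 12 others, a difference of 0.48 ± 0.11 (SE, limma adjusted p = 0.0482). It was above all 12 but close to the threshold, and its call was lost under 24 of 32 alternative settings. Havcr2, which encodes TIM-3, differed by 0.62 ± 0.14 (SE, limma adjusted p = 0.037), with 5.46, 5.50 and 5.37 on the Egr2 arrays inside the 3.78 to 5.86 of the 12 others. Its call was lost under 17 of the 32 alternatives, over which the difference ran from 0.088 to 1.15. Other members were not called, among them Lag3 (0.25), Ctla4 (0.21) and Btla (-0.31).

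Eomes, a T-box factor of effector and memory CD8 T cells, was the 1 called gene of 19 effector and exhaustion transcription factors, beside 1.44% of all genes, a share at which 1 call in such a list is not a result about the list. It read 4.40, 4.26 and 4.09 on the Egr2 arrays, against 2.39 to 4.16 with a median of 3.37 on the 12 others, a difference of 0.92 ± 0.15 (SE, limma adjusted p = 0.00469). The Ppp2r2d arrays reached the Egr2 level, with a difference of 0.17 between group means, and Arhgap5 was farthest, with 1.72. Cx3cr1, a chemokine receptor of effector cells and likewise the 1 called gene of 18 homing and residency receptors, differed by 0.95 ± 0.20 (SE, limma adjusted p = 0.0231). Its second, dimmer probe set gave -0.20, and the call was lost under 11 of the 32 alternatives.

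Cytokine and costimulatory genes were called lower where they were called. Of 21 cytokines and chemokines 3 were lower and 0 higher, beside 0.748% and 0.693% of all genes, with a median of -0.12: Csf2 (GM-CSF), Ccl1 and Lta (lymphotoxin alpha). Csf2 read 3.37, 3.25 and 3.46 on the Egr2 arrays and 2.05 to 6.06 with a median of 5.23 on the 12 others, for a difference of -1.33 ± 0.18 (SE, limma adjusted p = 0.000882). Against the Ptpn2 mean alone the difference was 0.86, while the differences against Ppp2r2d, Arhgap5 and Alk were -1.79, -2.47 and -1.93. Lta differed by -0.67 ± 0.14 (SE, limma adjusted p = 0.0227), and its call was lost under 10 of 32 alternatives. Ifng differed by -0.21, Tnf by 0.08 and Il2 by -0.03, none called.

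Of 12 costimulatory genes 2 were called lower and 0 higher, beside 0.748% and 0.693% of all genes, with a median of 0.09. Cd226, an activating receptor, read -2.53, -2.84 and -3.08 on the Egr2 arrays, against -3.30 to 0.04 on the 12 others. The difference was -1.10 ± 0.19 (SE, limma adjusted p = 0.00748), with -2.73 against Alk alone and 0.04 against Ppp2r2d alone. Both means of Cd226 were below the median gene, so the size of its fall is uncertain. Tnfsf4, the OX40 ligand gene, differed by -0.92 ± 0.14 (SE, limma adjusted p = 0.00264), with 0.05 against Ptpn2 and -1.73 against Ppp2r2d. The kinase gene Pim2, a target of cytokine signalling, differed by -0.82 and the death receptor gene Fas by -0.81, and each was the 1 called gene of its list of 14 and 15, beside 1.44% of all genes. Of 32 alternatives 11 lost the call of Pim2 and 19 that of Fas.

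**Figure D4:**
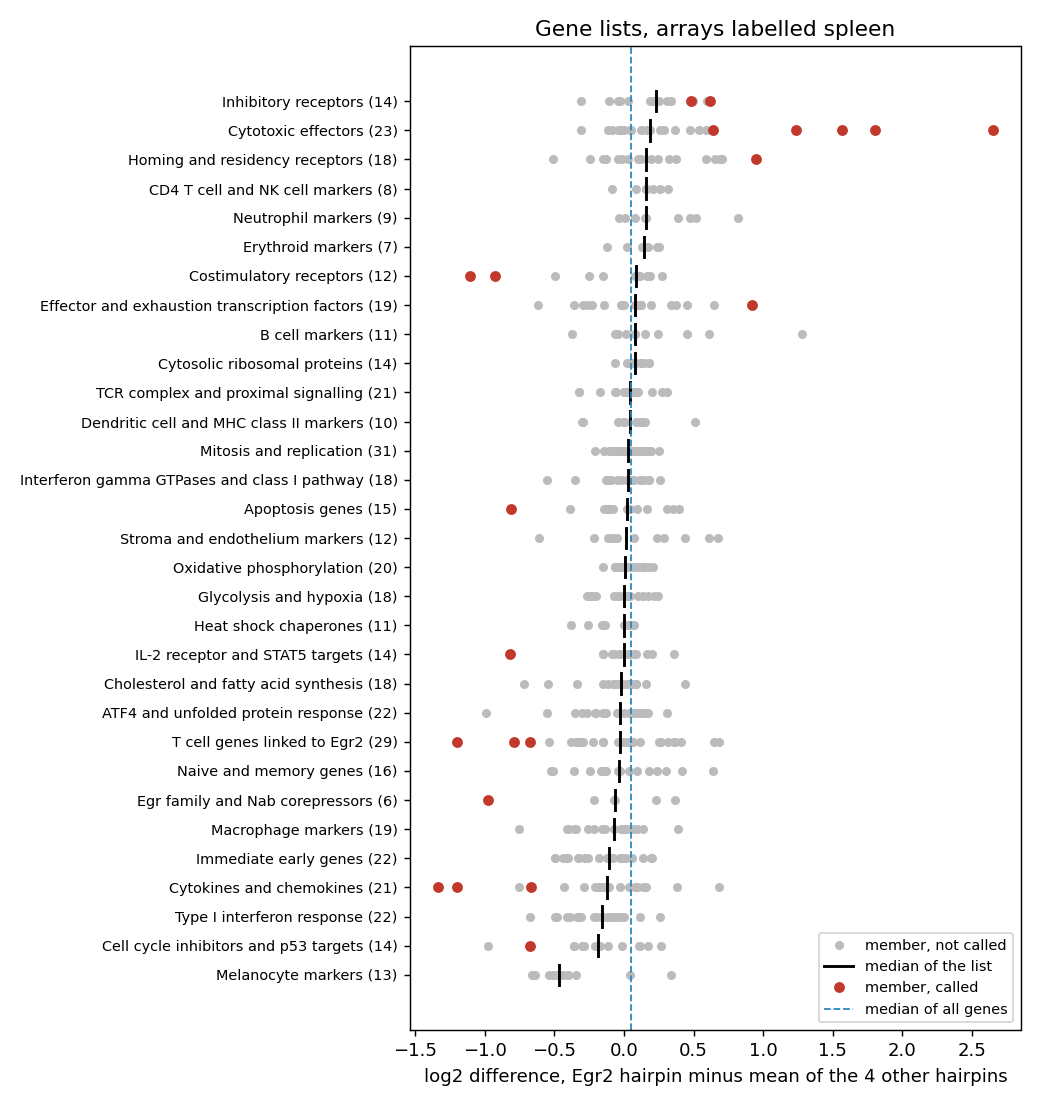
Log2 difference of the Egr2 contrast on arrays labelled spleen for each measured member of 31 gene lists, sorted by list median; red points are called genes, black bars list medians, the dashed line the median of all genes (0.05). Gzmg (2.65) is the called member farthest right, Csf2 (-1.33), Ccl1 (-1.20) and Cd226 (-1.10) are called on the left, and the melanocyte list has the lowest median (-0.47) with 0 called.

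In 12 lists of other cell programs no gene was called, beside 1.44% of all genes, and in lists of this size 0 calls are near that share. None of the 22 immediate early genes (median -0.11), 21 T cell receptor genes (0.05), 16 naive and memory genes (-0.04) or 31 mitosis and replication genes (0.03) was called. The same was true of 22 type I interferon genes (-0.16), 18 interferon gamma and class I genes (0.03), 20 oxidative phosphorylation genes (0.01) and 18 cholesterol and fatty acid synthesis genes (-0.02). Nor was any of 18 glycolysis and hypoxia genes, 22 unfolded protein response genes (-0.03), 11 heat shock chaperones or 14 ribosomal protein genes (0.08) called. In the type I interferon list 20 of 22 genes had a difference below 0, beside 7458 of 18193 over all genes. The largest was -0.67 for Ifit3, which ran from -1.29 against Ptpn2 to -0.34 against Arhgap5. The calls are by limma at an adjusted p under 0.05, and over all genes 2427 had an unadjusted p under 0.05.

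Markers of other cells gave 0 calls in 8 lists, beside 1.44% of all genes, and in lists of this size 0 calls are near that share. The list medians were not level. The melanocyte list had a median difference of -0.47, with 11 of 13 markers below 0, beside 7458 of 18193 over all genes. The array means were 2.29 to 3.55 on the Egr2 arrays and 2.30 to 3.98 on the 12 others. Among these the Ppp2r2d arrays, at 2.30, 2.93 and 2.77, lay within the Egr2 range, and the Alk arrays, at 3.77, 3.85 and 3.98, above it. The macrophage list had a median of -0.07 over 19 genes, the neutrophil list 0.15 over 9, the dendritic cell list 0.05 over 10, the erythroid list 0.15 over 7, the stroma list 0.01 over 12 and the CD4 T and NK cell list 0.16 over 8. The B cell list had 0.08 over 11, where Jchain, an antibody chain gene, had 1.28 and was not called (limma adjusted p = 0.0941). It was called under 4 of the alternatives, with a lowest adjusted p of 0.0113 without the Ptpn2 group. In bulk RNA, fewer cells of a type and less RNA per cell cannot be told apart. Whether such cells enter the differences of called genes such as Olr1, Tlr7, Igfbp7 and Mcpt8 was not tested. The Gapdh 3' minus 5' signal, which rises as RNA breaks down, was 0.25 to 0.83 on the Egr2 arrays and 0.41 to 0.66 on the 12 others, and its part was not tested.

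The 2 smallest p-values in the contrast belonged to Y-linked genes. The Y-linked genes Eif2s3y (-4.28), Kdm5d (-3.07) and Uty (-2.26) were called lower, and Xist, the X inactivation RNA, higher (1.23). Eif2s3y read -3.54 to -2.83 on the Egr2 arrays and -3.48 to 5.69 on the 12 others, and the difference was -8.63 against Ptpn2 and -8.66 against Arhgap5, but -0.03 against Ppp2r2d and 0.19 against Alk. The comparison therefore sets arrays without Y-linked signal against a mix of groups with and without it. Against Ppp2r2d and Alk alone, the groups without that signal, limma called 270 genes, and against Ptpn2 and Arhgap5 alone 177, 2 alternatives chosen after seeing the data. Khdc1a is a similar case, with a difference of 2.70 in which Egr2 arrays (0.77 to 1.97) and Arhgap5 arrays (2.43 to 3.07) were both far above the other 3 groups.

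On the arrays labelled tumor the same contrast called 21 genes (0.115%), 5 of which were also called in the same direction under the label spleen: the Y-linked genes Eif2s3y, Kdm5d and Uty, Xist, and Cdkn1a. There Cdkn1a read 0.45, 1.30 and 1.29 on the Egr2 arrays, against 1.66 to 2.69 with a median of 2.56 on the 12 others, all below again, with a difference of -1.33 ± 0.20 (SE, limma adjusted p = 0.0018). The Egr2 transcript itself did not pass under the label tumor: it read 3.49, 4.73 and 3.54 on the Egr2 arrays and 0.36 to 4.05 on the 12 others, for a difference of 0.68 ± 0.43 (SE, limma adjusted p = 0.934). The lowest of the 12 was the Ptpn2 array that stands apart. Gzmg read only -3.17 to -1.12 on the Egr2 arrays and -3.65 to -1.20 on the 12 others there, and the differences were 0.11 for Gzmg, -0.08 for Gzmd and -0.06 for Gzme. The lowest value of any probe set ran from -4.51 to -1.38 over the 18 arrays labelled tumor. These granzyme readings were thus low signals that vary with the floor of each array.

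Of the 51 genes called higher without overlap on arrays labelled spleen, 36 (70.6%) had a difference of the same sign on arrays labelled tumor, and of the 38 called lower 22 (57.9%), beside 51.5% over all genes. Their median difference was 0.96 under the label spleen and 0.19 under the label tumor for the 51, and -0.97 and -0.03 for the 38, beside 0.05 and 0.09 over all genes. Differences labelled tumor thus lean above 0 over all genes. The 51.5% mixes both signs and is not a like baseline for either set alone. Both sets were chosen on their values labelled spleen, so the larger medians there follow from the choice. A test of the difference between the labels, as the contrast labelled tumor minus that labelled spleen, called 4 genes (0.022%): Dsc2, Khdc1a, Cphx3 and Pxdc1. For Dsc2 the 3 Egr2 arrays labelled tumor read -1.003, -1.14 and -3.24, within the -3.73 to -0.10 of the 12 others, so that the rise of 3.41 labelled spleen stood beside -0.01 labelled tumor. The -1.14, on array 2, is near the lowest value of that array, -1.45. On arrays 1 and 3 the lowest values were -4.03 and -4.32, so the difference labelled tumor rests on low signals. The call of Dsc2 in the test between labels was lost without any 1 of the 3 Egr2 arrays labelled spleen and without Egr2 array 3 labelled tumor, and leaving out single Egr2 arrays gave 0 to 23 genes. For all other genes a call under the label spleen and none under the label tumor does not show that the labels differ.

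**Figure D5:**
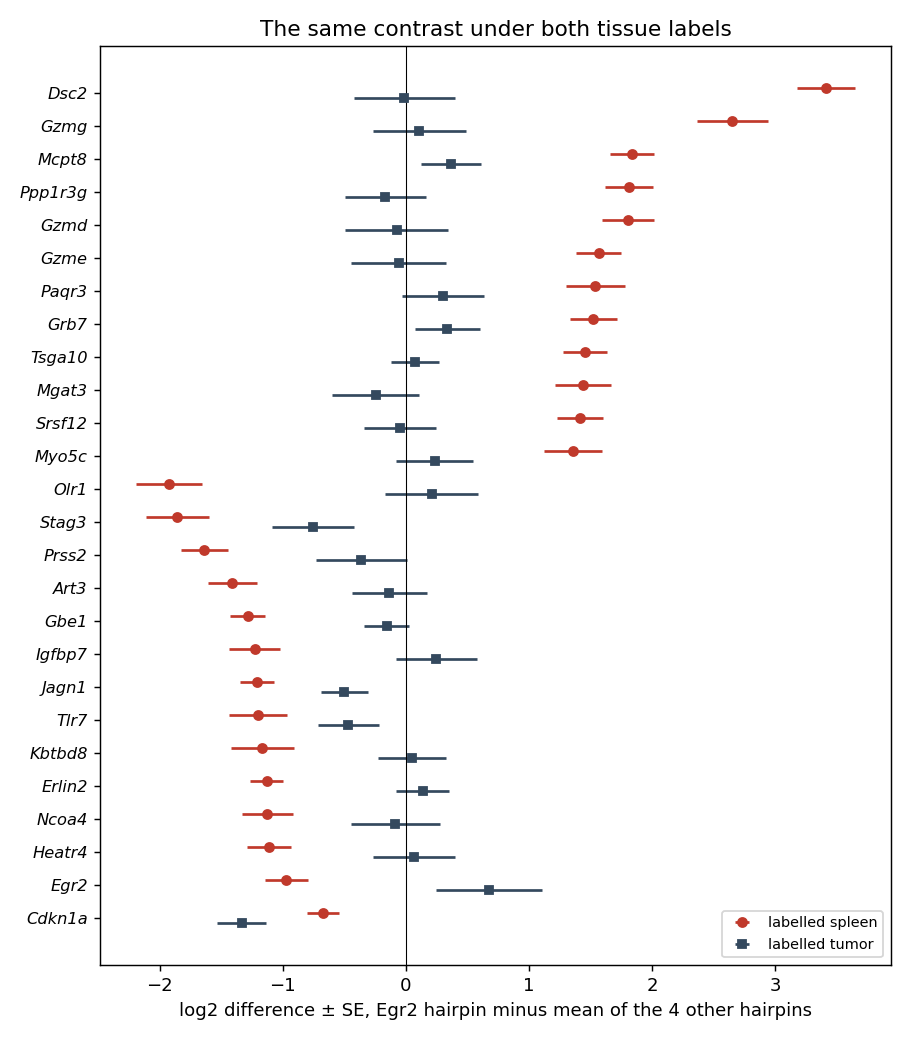
Log2 difference of the Egr2 contrast (horizontal, ± SE) for the 24 genes named by size, Egr2 and Cdkn1a, on arrays labelled spleen (red circles) and labelled tumor (dark squares). Cdkn1a is lower under both labels (-0.67 and -1.33), Dsc2 has 3.41 and -0.01, and most of the other genes lie closer to 0 under the label tumor.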

How the data were processed

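The deposited values are log2 expression values, which the authors made with RMA per the submitters' processing notes; no source used here gives its version or settings, and the centring of arrays is unknown. Per the labels, total RNA was amplified and labelled with biotin for Affymetrix arrays. Of 45101 probe sets, 64 are controls, and of the rest 34945 carry 1 symbol in the platform annotation, 932 several and 9160 none. A gene was read by its probe set with the highest mean over 36 arrays, which gave 18193 genes.

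In R 4.3.3, limma 3.58.1 (lmFit, eBayes) and data.table (release 1.17.8) fitted 1 coefficient for each of 5 groups over 15 arrays, with 10 residual and 5.14 prior degrees of freedom. The contrast was Egr2 minus the mean of the 4 other group means. Tests are two-sided, and calls need a p under 0.05 after Benjamini-Hochberg adjustment over the whole gene table. The labelled tumor contrast and the difference between labels came from 30 arrays with 20 residual degrees of freedom. The procedure was tested on simulated data.

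The comparison, the rule for named genes and the 31 lists (486 of 532 genes measured) were chosen with earlier results of these data known. The rule took the 12 largest rises and falls among called genes whose arrays do not overlap, the Egr family and Nab genes, the targets, up to 4 called members of each list, the member farthest from 0 of a list without calls, and genes called in the difference between labels. Further probe sets existed for 16 of the 42 called named genes: in 2 genes 1 of them pointed the other way, and in 0 it was called. Promoter windows are from RefSeq (GRCm38.p6), which held one for 14452 of the genes.

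Replicate numbers were not used as pairs in the main fit. Over 12 pairs of an Egr2 and another hairpin array with the same number, residuals correlated at -0.21 to 0.17, with 4 pairs over 0.1. Pairs with different numbers were not compared, so these values cannot decide whether the numbers pair arrays. Duplicate arrays were not found. Alternatives were quantile and cyclic loess normalization, averaging the probe sets of a gene, dropping genes not above percentile 40 on 3 or more arrays, other sets of arrays or groups in the fit, weighted arrays, replicate number as a block, a minimum difference of 1, eBayes with trend and robust settings and leaving out each array.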

Additional observations from a re-analysis of the deposited data

Results flagged for a closer look

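The test of the difference between the tissue labels singled out 4 genes. In each, the Egr2 difference labelled tumor minus that labelled spleen was below 0. For Dsc2 it was -3.42 ± 0.58 (SE), with a limma adjusted p of 0.0192. For Khdc1a it was -2.93 (limma adjusted p = 0.0192): the Egr2 arrays labelled spleen read 1.97, 1.00 and 0.77, while those labelled tumor read -3.01, -1.09 and -3.46. The -1.09 is near the lowest value of that array, -1.45. For Cphx3, a homeobox gene, the difference between labels was -2.55 (limma adjusted p = 0.0192), with a difference of 1.48 under the label spleen and -1.07, not called, under the label tumor. A second, dimmer Cphx3 probe set gave 0.23 under the label spleen. For Pxdc1 it was -1.89 (limma adjusted p = 0.0225), with Egr2 arrays at 4.30, 4.11 and 3.63 labelled spleen and 1.46, 2.19 and 1.66 labelled tumor, beside 1.95 to 4.05 and 1.52 to 3.45 on the 12 others of each label. Under the label spleen the Egr2 arrays lie below all 3 Arhgap5 arrays for Khdc1a, and they overlap with them for Cphx3 and Pxdc1.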

How the results depend on the processing

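The count of 262 called genes was 572 after quantile normalization (282 higher, 290 lower, of them 87 above and 78 below all 12 others) and 484 after cyclic loess (226 higher, 258 lower, 77 below all others). It was 398 with the filter on low values (194 higher), 51 with all 36 arrays (26 higher, 25 lower, 16 above, 8 below), 108 with 18 arrays labelled spleen (52, 56, 29 and 18) and 34 with the 12 others as 1 group (18 and 16, none overlapping). A minimum difference of 1 left 109 (48, 61, 23 and 18), and eBayes with trend and robust settings called 194 higher. Without the Ptpn2 group it was 441 (202 higher, 239 lower, 115 above, 119 below) and without the Arhgap5 group 168 (80 higher, 88 lower), and without the Ppp2r2d group 84 lay above all others. Of the alternatives chosen after seeing the data, Ppp2r2d and Alk alone gave 107 genes called lower and below all others, and Ptpn2 and Arhgap5 alone gave 74 lower and 90 above. Leaving out 1 array gave 133 to 343 calls, 58 to 176 higher, 75 to 194 lower, 40 to 117 above and 34 to 89 below; the highest total came without Egr2 array 3, and without Ptpn2 array 2 76 lay below. The Egr2 transcript kept -0.97 but lost its call with all 36 arrays (adjusted p = 0.873), with 18 arrays (0.0731), with the 12 others as 1 group (0.0884) and under the minimum difference of 1, and ran from -1.03 to -0.91 without single arrays. The difference between labels, 4 genes, was 84 after quantile normalization, 48 after loess, 0 with 36 arrays and 11 without Ptpn2 array 1 labelled tumor, and 0 to 23 without single Egr2 arrays. With the replicate block, which pairs arrays only by number, 256 genes were called and 3 in the difference between labels; it changed the call of Havcr2, Pdcd1 and that of Pxdc1 between labels.

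Of 42 called named genes 8 kept their call under every alternative run (Dsc2, Gbe1, Grb7, Jagn1, Mcpt8, Olr1, Ppp1r3g and Tsga10), and of 1340 values 205 were no longer called and 0 changed direction. Among 29 uncalled named genes 5 were called under some alternative, in 8 values of 926: Jchain under 4, and Arg1, S100a9, S1pr1 and Iigp1 under 1 each. In these 29 genes 18 values changed sign: Zbtb7b with the mean of probe sets (-0.043), Egr4 with array weights (0.074), Alk without the Ppp2r2d (0.070) or Alk group (0.091), Egr3 without the Alk group (0.069) and, against Ptpn2 and Arhgap5 alone, Egr3 (0.092), Egr4 (0.0076), Nab1 (-0.11) and Alk (0.26). Without single arrays Alk ran from -0.11 to 0.16, Egr3 from -0.16 to 0.016 and Egr4 from -0.18 to 0.12. The cause of these shifts was not tested, and low signals near background limit what Alk, Egr4 and dim genes can show.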
